A study of Mus musculus with 6 samples.

Results

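The genes described here encode 9 proteins that astrocytes secrete or shed and that act on the formation and maturation of synapses: Sparcl1 (hevin), Sparc, the thrombospondins Thbs1, Thbs2, Thbs3 and Thbs4, the glypicans Gpc4 and Gpc6, and Chrdl1. They were taken by name from the array annotation, as a group chosen with earlier results of these arrays known, and each had exactly 1 transcript cluster, the group of probes that covers 1 transcribed region. All 9 of the 9 were measured, among 19937 genes in all. The arrays held RNA of primary neurospheres, the floating colonies that precursor cells form in culture, grown from the minced hippocampal tissue of male C57BL/6J mice of 8 to 12 weeks. All sample titles call these colonies small neurospheres. The cells were kept in medium with EGF and bFGF and received either norepinephrine at 10 µM (N) or potassium chloride at 15 mM (K), and neurospheres were collected on day 14. Each treatment had 3 biological replicates with 1 array each; how many animals stood behind each replicate is not given in the sources used here. No untreated neurospheres were among the arrays, so a difference between N and K cannot be assigned to either agent. The values are RNA levels in whole colonies, and in such bulk RNA fewer cells of a type and less RNA per cell cannot be told apart.

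Astrocytes promote the formation of synapses largely through proteins they release, many of which are also components of the extracellular matrix. Thrombospondins act through the calcium channel subunit α2δ-1 (Cacna2d1) to induce synapses that are structurally normal but lack AMPA receptors on the postsynaptic side. Hevin promotes excitatory synapses by linking adhesion proteins of the presynaptic and postsynaptic membranes, and its relative SPARC antagonises this synapse-forming activity of hevin. Glypicans 4 and 6 bring AMPA receptors containing GluA1 to synapses, and chordin-like 1, a BMP antagonist, favours the later switch to receptors containing GluA2. Much of this was worked out with cultured rat retinal ganglion cells and mouse brain.

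RefSeq promoter sequences (GRCm38.p6, from 250 bases before to 50 bases after the gene's start) were at hand for 5 of the 9 genes: Sparc, Thbs2, Thbs3, Thbs4 and Gpc4. Those of Sparc, which had a higher mean with N, and of Thbs2, whose means were nearly equal with N and K, are shown to set the promoter of a member with a large log2FC beside that of the member with the log2FC nearest to 0. Both lie on the minus strand, Sparc at chr11:55420031-55420330 and Thbs2 at chr17:14694213-14694512, and are written 5′ to 3′. Capitals mark matches on either strand to the core of a CCAAT box (CCAAT), the core of a TATA box (TATAAA), a GC box (GGGCGG), an AP-1 site (TGAGTCA) or the half-site of a cAMP response element (TGACG).
Sparc: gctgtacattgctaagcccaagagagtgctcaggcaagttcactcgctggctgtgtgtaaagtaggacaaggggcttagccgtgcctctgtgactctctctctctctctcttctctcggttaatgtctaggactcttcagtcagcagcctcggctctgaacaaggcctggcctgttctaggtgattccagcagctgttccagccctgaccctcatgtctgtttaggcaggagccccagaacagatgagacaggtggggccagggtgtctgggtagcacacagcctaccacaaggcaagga
Thbs2: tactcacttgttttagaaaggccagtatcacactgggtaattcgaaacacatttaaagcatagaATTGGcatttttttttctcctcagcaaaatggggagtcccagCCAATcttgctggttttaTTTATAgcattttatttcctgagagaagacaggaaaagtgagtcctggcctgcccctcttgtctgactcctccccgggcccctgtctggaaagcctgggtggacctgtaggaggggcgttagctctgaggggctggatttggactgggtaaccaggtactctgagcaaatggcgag
The Sparc window matched none of these letters. The Thbs2 window matched TATAAA and CCAAT, which 13.6% and 37.4% of 32851 promoter windows of the same length also did. TGACG was found in none of the 5 windows and in 20.8% of all windows, and TGAGTCA in none of the 5 and in 5.2% of all windows. GGGCGG was found in the windows of Thbs3, Thbs4 and Gpc4 and in 35.7% of all windows. The windows of Thbs4 and Gpc4 held 24 and 22 CG dinucleotides, those of Thbs3, Sparc and Thbs2 held 8, 4 and 4, and the median over all windows was 7. A match is a description of the letters and no evidence of a bound factor.

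On all arrays the deposited log2 values (robust multi-array average, RMA) lay between 1.57 and 14.1. Array medians ran from 6.30 to 6.40, with N replicate 3 lowest and K replicate 3 highest. Across clusters, K replicate 1, 2 and 3 had a mean r of 0.954, 0.954 and 0.948 to their own group and of 0.955, 0.969 and 0.943 to the N arrays, a description that carries no test. K replicate 2 was thus the K array most like the N arrays, and K replicate 3 the least like any other.

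None of the 9 genes passed the test over all genes (limma, Benjamini-Hochberg adjusted p under 0.05), which 0.155% of all genes passed (0.12% higher with N and 0.0351% higher with K). At an unadjusted P under 0.05, 4 of the 9 differed between N and K, against 8.54% of all genes: Sparcl1, Sparc and Chrdl1 had higher means with N (4.64% of all genes), and Gpc6 had a higher mean with K (3.89% of all genes). In 3 of the 9 (Sparcl1, Chrdl1 and Gpc6) the N and K arrays did not overlap, against 13.3% of all genes, 5.78% with N above K and 7.55% with N below K. No member met the rule of a log2FC over 1 in size with an unadjusted P under 0.05, which 0.492% of all genes met. Over the 9 genes 6 log2FC were positive, beside 8565 of all 19937 genes tested. The median was 0.08, beside -0.03 over all genes tested. Because of how the genes were chosen, these counts describe the set and do not test it.

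**Figure D1:**
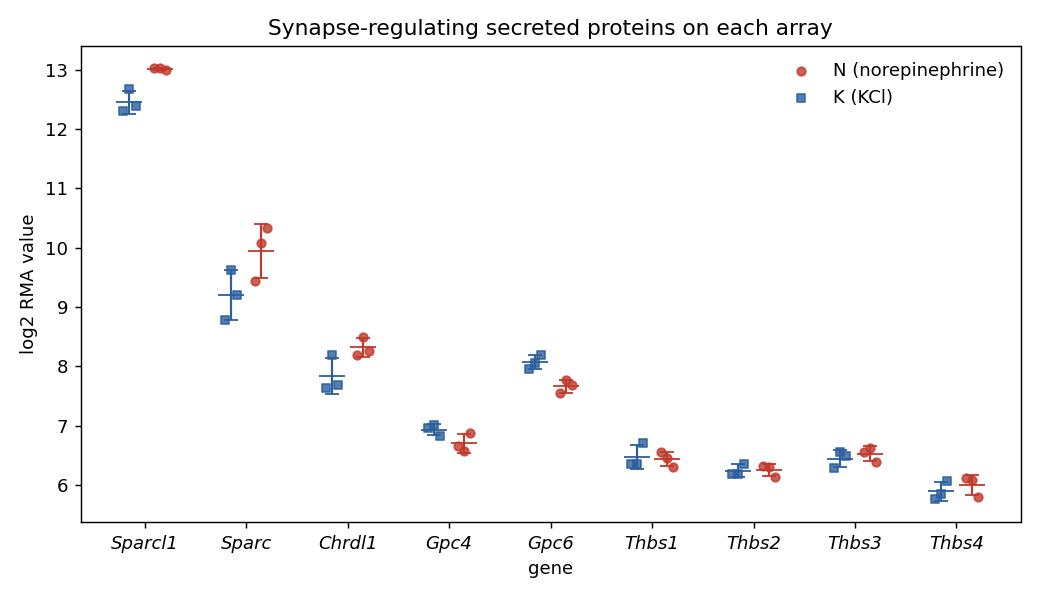
Log2 RMA values (vertical axis) of the 9 genes (horizontal axis) on the 3 N arrays (circles) and the 3 K arrays (squares), with bars for mean ± SD. Sparcl1 was between 12.99 and 13.03 on the N arrays and between 12.30 and 12.67 on the K arrays; heights of different genes cannot be compared, since each cluster has its own probes.

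Sparcl1 encodes hevin, a secreted matrix protein of astrocytes that promotes excitatory synapses. Its log2 values were 13.03, 13.03 and 12.99 on N replicates 1, 2 and 3 and 12.30, 12.67 and 12.39 on K replicates 1, 2 and 3. Every N array lay above every K array, and the N arrays lay within 0.04 of each other while the K arrays spread more widely (SD 0.02 against 0.19, n = 3 each). The log2FC of N minus K was 0.56 (standard error 0.13, 95% confidence interval 0.26 to 0.86), a 1.48-fold difference, with an unadjusted P of 0.00240 and an adjusted p = 0.263 from limma. An exact two-sided permutation test of the 6 arrays gave p = 0.1, the smallest that 3 arrays against 3 allow.

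Sparc encodes the matricellular protein SPARC (osteonectin), which counters hevin at synapses and which endothelial and connective tissue cells also make. Its log2 values were 9.44, 10.07 and 10.33 on the N arrays and 8.78, 9.62 and 9.20 on the K arrays. The groups overlapped, with N replicate 1 below K replicate 2. The log2FC was 0.75 (standard error 0.27, 95% confidence interval 0.14 to 1.35), the largest of the 9 in size and also the least precise. Its unadjusted P was 0.0213 and its adjusted p = 0.490 from limma, with p = 0.2 in the exact permutation test. Thus hevin and its antagonist both had higher means with N. The difference between them within each array, Sparcl1 minus Sparc, was 3.07 ± 0.47 with N and 3.25 ± 0.24 with K (log2, SD, n = 3 each), a shift of -0.19 (exact permutation p = 0.6); with a smallest possible p of 0.1, this test cannot show whether both genes shifted alike. The shift of the pair was 0.015 without N replicate 3.

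Chrdl1 encodes chordin-like 1, a secreted antagonist of BMP signalling that in the mouse cortex promotes the maturation of synapses. Its log2 values were 8.19, 8.50 and 8.26 on the N arrays and 7.64, 8.18 and 7.69 on the K arrays. The groups did not overlap, but N replicate 1 and K replicate 2 were nearly level. The log2FC was 0.48 (standard error 0.17, 95% confidence interval 0.09 to 0.88), with an unadjusted P of 0.0217 and an adjusted p = 0.490 from limma. K replicate 2 was the highest K array for Sparcl1, Sparc and Chrdl1 alike. Without it their log2FC were 0.67, 0.96 and 0.66, with adjusted p = 0.0970, 0.205 and 0.139 from limma. More genes of the whole series also had an unadjusted P under 0.05 without K replicate 2, 2912 against 1702 with all arrays. The unadjusted P of Sparc was 0.05 or more when K replicate 1, N replicate 2 or N replicate 3 was left out (log2FC 0.54, 0.68 and 0.56), and that of Chrdl1 when N replicate 2, K replicate 1 or K replicate 3 was left out (log2FC 0.39, 0.39 and 0.41), while Sparcl1 and Gpc6 stayed under 0.05 without any 1 array.

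**Figure D2:**
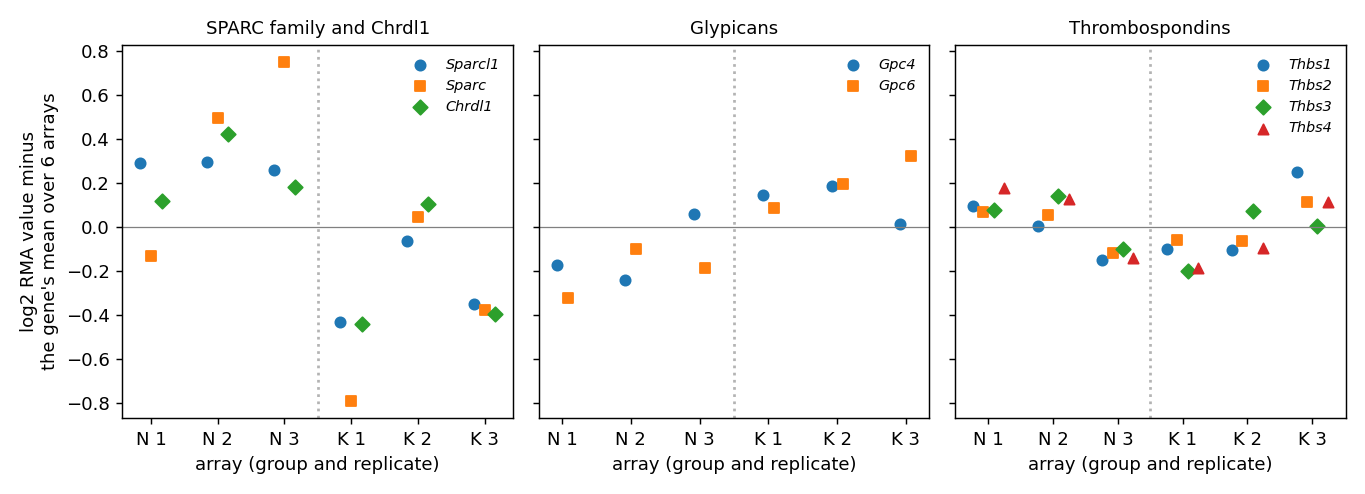
Log2 RMA value of each gene minus its own mean over the 6 arrays (vertical axis) on each array (horizontal axis, N and K replicates 1 to 3), in 1 panel for Sparcl1, Sparc and Chrdl1, 1 for the glypicans and 1 for the thrombospondins. K replicate 2 is the highest K array for all genes of the first panel, and N replicate 3 is the lowest N array for all 4 thrombospondins.

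Glypicans are heparan sulfate proteoglycans held on the cell surface by a lipid anchor and released from it by cleavage. Gpc6 had log2 values of 7.54, 7.77 and 7.68 on the N arrays and 7.95, 8.06 and 8.19 on the K arrays. Every N array lay below every K array, the opposite order to Sparcl1. The log2FC was -0.40 (standard error 0.13, 95% confidence interval -0.69 to -0.12), with an unadjusted P of 0.0114 and an adjusted p = 0.396 from limma. Gpc4 had log2 values of 6.65, 6.58 and 6.88 on the N arrays and 6.97, 7.01 and 6.83 on the K arrays. Its groups overlapped through N replicate 3 and K replicate 3, and its log2FC of -0.23 (standard error 0.13, 95% confidence interval -0.53 to 0.06) had an unadjusted P of 0.109. Both glypicans therefore had lower means with N, and their difference within an array, Gpc4 minus Gpc6, was -0.96 ± 0.20 with N and -1.13 ± 0.20 with K (SD, n = 3 each, exact permutation p = 0.4).

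Thrombospondins fall into a trimeric subgroup, Thbs1 and Thbs2, and a pentameric subgroup, Thbs3 and Thbs4, and it is in the first that the synapse-forming activity of young astrocytes was found. All 4 lay close to the median over all clusters, 6.34, with Thbs2 and Thbs4 below it. Thbs1 had log2 values of 6.55, 6.46 and 6.31 on the N arrays and 6.36, 6.36 and 6.71 on the K arrays. Thbs2 had 6.32, 6.30 and 6.13 on the N arrays and 6.19, 6.19 and 6.36 on the K arrays. In both the groups overlapped throughout. Thbs3 had log2 values of 6.56, 6.63 and 6.39 on the N arrays and 6.29, 6.56 and 6.49 on the K arrays, and Thbs4 had 6.13, 6.08 and 5.81 against 5.76, 5.85 and 6.06. The log2FC were -0.03 for Thbs1 (95% confidence interval -0.36 to 0.29), 0.01 for Thbs2 (-0.27 to 0.28), 0.08 for Thbs3 (-0.22 to 0.38) and 0.11 for Thbs4 (-0.21 to 0.43), with unadjusted P from 0.448 to 0.966. With intervals reaching from -0.36 to 0.43, the arrays do not show that the thrombospondins were equal with N and K. The mean of Thbs1 and Thbs2 minus that of Thbs3 and Thbs4 was 0.08 ± 0.05 with N and 0.19 ± 0.11 with K (SD, n = 3 each, exact permutation p = 0.3). Over the 3 family differences compared, all adjusted p were 0.6, and none could have gone below 0.1. N replicate 3 was the lowest N array for all 4 thrombospondins, and K replicate 3 the highest K array for Thbs1, Thbs2 and Thbs4; these were also the arrays with the lowest and the highest median, and the part of the array level in this was not tested.

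**Figure D3:**
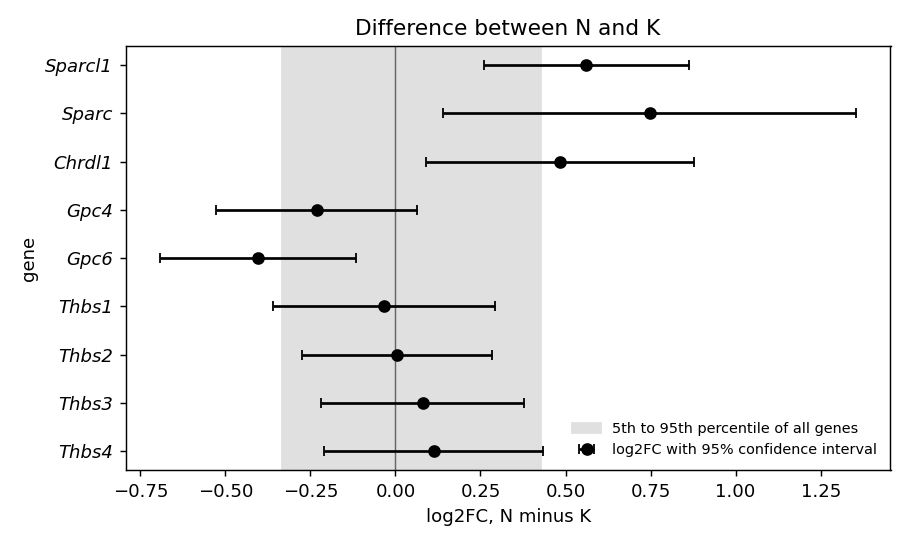
Log2FC of N minus K (horizontal axis) of the 9 genes, with bars for the 95% confidence interval from limma (n = 3 arrays per group) and a grey band from -0.33 to 0.43, the 5th to 95th percentile of all genes tested. Sparcl1, Sparc and Chrdl1 lie above the band and Gpc6 below it, and the thrombospondins and Gpc4 lie inside it.

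The array profiles most like those of the 4 genes with an unadjusted P under 0.05 were sought among genes with a mean above 6.34, by Pearson's r over the 6 arrays. They were Ptges3, Rimklb and Vps35 for Sparcl1 (r from 0.997 to 0.999), 2210408I21Rik, Eya1 and Ercc1 for Sparc (r = 0.986 or 0.987), Plxnc1, Pwp2 and Hs6st2 for Gpc6 (r from 0.990 to 0.993) and Mrpl39, Itm2a and Gcdh for Chrdl1 (r from 0.992 to 0.996). These are the highest of 11217 values of r for each gene, over 6 arrays that share their treatment groups, and are given as a description. None of these 12 genes passed over all genes tested.

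Receptors and partners of the 9 proteins were examined in a list of 21 genes, of which 19 were measured and the others were not analysed here. Over this list 1 gene was higher with N and none was higher with K at an adjusted p under 0.05 (0.12% and 0.0351% of all genes). At an unadjusted P under 0.05 there were 3 and 3 (4.64% and 3.89% of all genes). The median log2FC was -0.15, beside -0.03 over all genes tested. The gene that passed was Gria1, which encodes GluA1, the AMPA receptor subunit that glypicans 4 and 6 recruit. Its log2 values were 9.50, 9.54 and 9.40 with N and 7.56, 8.01 and 6.71 with K (log2FC 2.05, standard error 0.28, adjusted p = 0.0437 from limma), and it did not pass with each array centred on its median (adjusted p = 0.0836) or without N replicate 1, 2 or 3 or K replicate 1 (adjusted p from 0.157 to 0.185 from limma). Gria2, which encodes GluA2, had a log2FC of -0.15.

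Cd36, a scavenger receptor that binds thrombospondin, had log2 values of 7.19, 7.55 and 7.49 with N and 6.55, 6.59 and 5.77 with K, without overlap (log2FC 1.11, standard error 0.23, adjusted p = 0.175 from limma). Nlgn1, a neuroligin and a postsynaptic partner of hevin, had 9.22, 8.99 and 8.99 with N and 8.67, 8.63 and 8.09 with K (log2FC 0.60, standard error 0.17, adjusted p = 0.350). Ptprd, a receptor phosphatase through which glypican 4 acts on axons, had 7.31, 7.20 and 6.88 with N and 7.59, 7.72 and 7.74 with K (log2FC -0.55, standard error 0.14, adjusted p = 0.291). The other genes of the list with an unadjusted P under 0.05 were Lrp1 and Itgb1, both lower with N, with log2FC of -0.26 and -0.30. Cacna2d1, the synaptic thrombospondin receptor, had a log2FC of -0.30 (95% confidence interval -0.65 to 0.04) and an unadjusted P of 0.0781 from limma. Its symbol stands alone on 2 clusters, and these values are of the 1 with the higher mean. Cacna2d1, Gria2, Lrp1 and Itgb1 are named outside the rule for named genes, after their values were seen. The same holds for Map2, Snap25, Nefl, Tubb3 and S100b among the cell type markers.

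Relatives of the 9 proteins outside the set, from the SPARC, thrombospondin, glypican and chordin families, had log2FC from -0.35 to 0.07 with a median of -0.04. Of these 13 genes 1 had an unadjusted P under 0.05, against 8.54% of all genes. It was Gpc2, a glypican of growing neurons (log2FC -0.35, standard error 0.15, adjusted p = 0.569 from limma). Of 11 other factors and receptors through which astrocytes act on synapses, 3 had an unadjusted P under 0.05 (8.54% of all genes) and none passed (0.155% of all genes). Apoe, the lipid carrier that supplies neurons with cholesterol, had log2 values of 10.63, 10.82 and 10.85 with N and 10.24, 9.98 and 10.09 with K, without overlap (log2FC 0.66, standard error 0.13, adjusted p = 0.144 from limma). Il33, a cytokine that directs microglia to engulf synapses, had a log2FC of 0.35, and Mertk, a receptor by which astrocytes engulf synapses, one of -0.42.

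**Figure D4:**
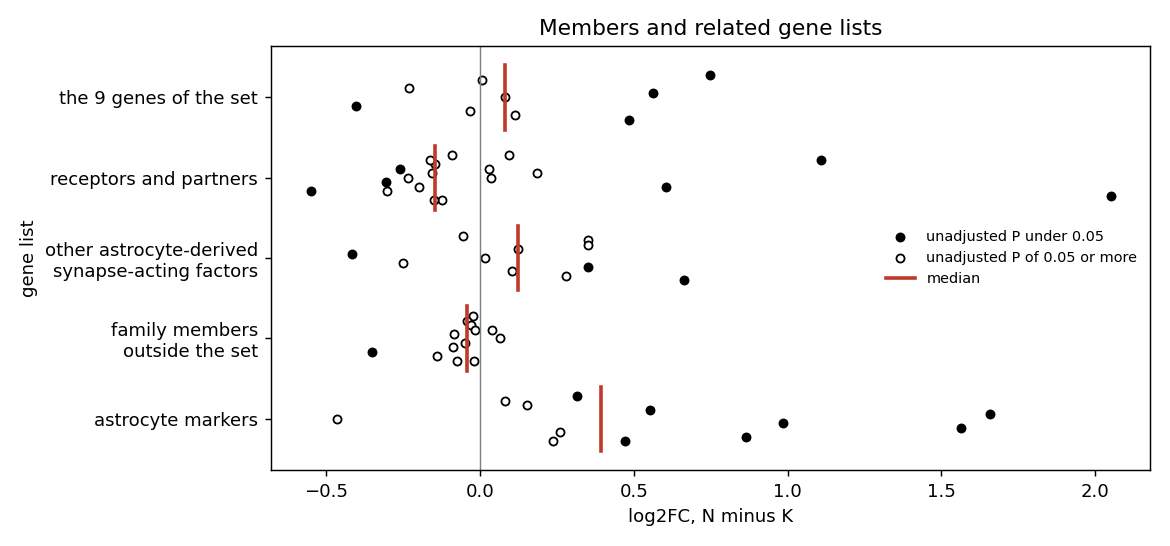
Log2FC of N minus K (horizontal axis) of the 9 genes, of 3 related lists and of the astrocyte markers (vertical axis), with 1 point per gene, filled where the unadjusted P was under 0.05, and a red bar for the list median. These stood at 0.08 for the 9 genes, -0.15 for receptors and partners, 0.12 for other astrocyte-derived factors, -0.04 for family members outside the set and 0.39 for astrocyte markers.

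The astrocyte markers, like Sparcl1, Sparc and Chrdl1, were mostly higher with N. Of 12 markers 7 had an unadjusted P under 0.05, all higher with N, against 8.54% of all genes (4.64% higher with N). In 11 of the 12 the log2FC was positive, and S100b had one of -0.47. Gfap was the 1 that passed over all genes (adjusted p = 0.0358 from limma). Its log2 values were 7.90, 7.98 and 8.53 with N and 6.18, 6.47 and 6.79 with K. Gfap did not pass when any 1 of the 6 arrays was left out (adjusted p from 0.0611 to 0.145 from limma). With arrays centred on their median, quantile or cyclic loess normalization it also did not pass (adjusted p = 0.0590, 0.0516 and 0.0517 from limma). The same held in the ordinary linear model and with all transcript clusters. It passed with the replicate number as a block, with trend and robust, with genes above the median only and with the mean of all clusters. The mean level over the 12 markers was 9.02 to 9.41 on the N arrays and 8.61 to 8.69 on the K arrays, and their signals summed on the linear scale were 10890 to 12588 and 8929 to 9209. The part of the astrocyte markers in the values of Sparcl1, Sparc and Chrdl1 was not tested. Sparc is also a gene of blood vessels and connective tissue. Of 10 endothelial markers none had an unadjusted P under 0.05, and their mean level was 5.66 to 5.77 with N and 5.69 to 5.85 with K (summed signals 556 to 598 and 557 to 631). Of 10 markers of pericytes and fibroblasts 2 had an unadjusted P under 0.05, both higher with N, and the mean level was 6.43 to 6.45 with N and 6.27 to 6.40 with K (summed signals 1019 to 1036 and 901 to 984). None of 10 microglia markers and none of 9 measured oligodendrocyte lineage markers had an unadjusted P under 0.05. Of 10 neuron markers 4 met that threshold, 3 with a higher mean on the N arrays and 1 with a lower one. Summed signals of the neuron markers were lower with N, 2413 to 2598 against 2818 to 2961 with K. Their mean level was 6.52 to 6.61 with N and 6.32 to 6.57 with K. The oligodendrocyte lineage sums were also lower with N, 2323 to 2601 against 2672.5 to 2760 (mean level 7.42 to 7.54 and 7.47 to 7.60). The microglia sums overlapped, 612 to 631 with N and 604 to 727 with K. Of 9 measured neural precursor markers 3 had an unadjusted P under 0.05, 2 with a higher mean on the N arrays and 1 with a lower one. Means above 6.34, the median over all clusters, were found for 8 of the 9 measured precursor markers, 12 of 12 astrocyte markers, 2 of 10 neuron markers, 2 of 10 microglia markers and 1 of 10 endothelial markers. Sox2, a precursor gene, was at 10.41, 9.89 and 10.17 with N and 9.84, 10.20 and 9.67 with K. Map2, one of the neuron markers above the median, was at 10.79 to 10.88 with N and 11.09 to 11.22 with K. It was the 1 neuron marker with an unadjusted P under 0.05 and a lower mean on the N arrays. The 3 with a higher mean were Snap25, Nefl and Tubb3, with log2FC of 0.81, 0.64 and 0.47. Nefl (means 6.42 with N and 5.78 with K) and Tubb3 (6.54 and 6.07) were not among the 2 neuron markers above the median. The N and K arrays of Nefl overlapped. Since each cluster has its own probes, these counts describe the arrays and do not settle which cell types the colonies held.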

How the data were processed

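RNA of 6 neurosphere samples was hybridised to whole-transcript mouse gene arrays of Affymetrix. The deposited log2 values were made by the authors in Partek Genomics Suite with RMA (versions not given in the sources used here) and were used as they stand. Clusters were named from the platform annotation. Of 34760 clusters 21640 carried exactly 1 symbol, 1321 several and 11799 none, and the cluster with the highest mean over the 6 arrays was kept for each of 19937 genes. The difference N minus K was fitted in R 4.3.3 by limma 3.58.1 (lmFit, then eBayes, with 4 residual and 4.59 prior degrees of freedom, no block), with Benjamini-Hochberg adjustment over all genes and a threshold of 0.05. The methods state thresholds on log2FC and P but name no test. Single values were also compared by an exact two-sided permutation test over the 20 splits of the arrays. RMA compresses low values, and detection calls were not used here. The 3 arrays per group limit the precision. The members, lists and tests were chosen with earlier results of these data known. Genes named in the text are the members, up to 4 genes of each related list with the smallest unadjusted P, the 3 genes most like each member with an unadjusted P under 0.05, and defining cell type markers. The lists, fixed with the members, cover receptors and partners, family members, other astrocyte-derived factors, and markers of astrocytes, neurons, oligodendrocyte lineage, endothelium, pericytes and fibroblasts, microglia and precursors. Results were recomputed with the replicate number as a block, an unmoderated linear model, eBayes with trend and robust, genes above the median only, quantile, median and cyclic loess normalization, the mean of all clusters, all clusters, and each array left out. The fit was tested on simulated data. Plots were made in Python 3.11.15 (matplotlib 3.10.9).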

Additional observations from a re-analysis of the deposited data

How the results depend on the processing

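No member passed at an adjusted p under 0.05 under any of the 15 alternatives, and Sparcl1, Sparc, Chrdl1, Gpc4, Gpc6 and Thbs3 kept the sign of their log2FC in all 15 and Thbs4 in the 14 that measured it. The number of members with an unadjusted P under 0.05 was 4, and 2 (Sparcl1 and Gpc6) in the ordinary linear model without moderation; with 1 array left out it was 2 to 4. Thbs1 turned to 0.0033 with cyclic loess normalization and ranged from -0.092 to 0.085 with 1 array left out, and Thbs2 from -0.028 to 0.066. Sparcl1 minus Sparc ranged from -0.44 to 0.015 with 1 array left out. In the related lists 10 genes had an unadjusted P under 0.05. Over the 15 alternatives this count was 6 to 12, with 6 to 8 when 1 array was left out and 12 with the mean of all clusters. The number that passed was 1 (Gria1). It fell to 0 in the ordinary linear model, with quantile, median or cyclic loess normalization and with all transcript clusters. With 1 array left out it was 0 to 1. Over all genes 31 passed, 1 in the ordinary linear model, 12 with quantile normalization, 3 with arrays centred on their median, 12 with cyclic loess, 0 with all transcript clusters (of which 377 met the rule of a log2FC over 1 with an unadjusted P under 0.05, against 98 genes), and 0 to 21 with 1 array left out, when 90 to 212 met that rule and 1251 to 2912 had an unadjusted P under 0.05. The cause was not tested. The deviations of same-numbered arrays from their group means correlated with r = 0.04, 0.04 and 0.12, and those of differently numbered arrays with r from -0.14 to 0.11. These values do not settle whether the replicate numbers pair the arrays. With the replicate number as a block 41 genes passed. Sparcl1, Sparc, Chrdl1 and Gpc6 then had an unadjusted P of 0.00412, 0.00199, 0.00763 and 0.0168 from limma, and none of them passed. No normalization moved the median log2FC of all genes by over 0.1.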
